A study of Homo sapiens with 9 samples.

Results

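The cytosolic ribosome is built from a large and a small subunit, and the RNA levels of the genes for its proteins were compared between 3 human neuroblastoma cell lines. The genes were taken by name from the deposited table: every entry whose symbol is RPL or RPS followed by digits, with or without a closing A or X, together with RPSA, RPLP0, RPLP1 and RPLP2. This gave 77 of 19706 gene symbols, 46 of the large subunit and 31 of the small subunit. Of these, 76 passed the filter on low values. FAU and GNB2L1 (an older symbol of RACK1) also encode ribosomal proteins and fall outside the naming rule. The groups were Kelly, with amplified MYCN, BE(2)C, also with amplified MYCN, and SH-SY5Y, without the amplification, each with 3 libraries of polyadenylated RNA from untreated cells. BE(2)C and SH-SY5Y are cloned sublines of older neuroblastoma lines. All lines were grown in the same medium mixture with serum and harvested before confluence, per the labels. Since SH-SY5Y is the only line that lacks the amplification, an effect of MYCN and any other difference of that line cannot be told apart. Nothing in the labels ties the 3 libraries of a line to separate cultures, so a p-value here reflects the spread among these libraries alone, which may be technical.

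Ribosomal proteins are made in matched amounts and assembled with ribosomal RNA in the nucleolus, so their genes are usually transcribed at high and similar rates. Their mRNAs begin with a terminal oligopyrimidine tract, a C followed by further pyrimidines, through which mTOR signalling controls their translation. MYC-family proteins are known activators of ribosome production, and MYCN amplification is a defining lesion of a high-risk form of neuroblastoma. Several ribosomal proteins also have roles off the ribosome, such as the binding of RPL5 and RPL11 to MDM2, the ubiquitin ligase that holds p53 down.

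The start of the annotated transcript is shown for genes that recur below, because the tract sits there. Each sequence is a window of 30 bases of the RefSeq entry (build GRCh38.p14), on the strand of the gene, with 10 bases before the annotated start and 20 from it. Capitals mark an unbroken run of C and T that begins with a C at the annotated start and is at least 5 bases long. The first set holds genes that were lower in Kelly than in SH-SY5Y.
RPL27A, chr11:8682782-8682811, plus strand: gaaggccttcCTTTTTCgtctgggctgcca
RPL31, chr2:101002279-101002308, plus strand: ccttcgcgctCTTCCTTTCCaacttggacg
RPLP2, chr11:809957-809986, plus strand: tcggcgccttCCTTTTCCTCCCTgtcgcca
RPS27, chr1:153990752-153990781, plus strand: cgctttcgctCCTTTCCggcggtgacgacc
RPS25, chr11:119018324-119018353, minus strand: gcagcgcttcCTTTTTgtccgacatcttga
The second set holds genes that were above SH-SY5Y in BE(2)C.
RPS12, chr6:132814559-132814588, plus strand: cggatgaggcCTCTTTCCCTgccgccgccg
RPLP0, chr12:120201092-120201121, minus strand: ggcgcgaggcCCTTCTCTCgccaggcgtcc
RPS23, chr5:82278335-82278364, minus strand: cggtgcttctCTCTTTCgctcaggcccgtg
The third set holds genes that differed between lines and whose RefSeq entry has no such run at any listed start.
RPL9, chr4:39458903-39458932, minus strand: taatgacgacagacgttctttctttgctgc
RPS4X, chrX:72277229-72277258, minus strand: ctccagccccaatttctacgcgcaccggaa
RPS26, chr12:56041908-56041937, plus strand: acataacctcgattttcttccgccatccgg
Of the 77 ribosomal protein genes, 62 matched a RefSeq entry, and 46 of these (74.2%) had a run of this kind at a listed start. Across all 27305 genes of the same table, 1404 (5.14%) had one. The printed genes with a run include genes that were lower and genes that were higher than in SH-SY5Y. A match describes the annotated start and not the start used in these cells.

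The values are TPM, a measure of transcript abundance normalized for length and library total, rescaled to the gene entries and divided by a factor per library, called scaled TPM. TPM keeps no depth, so the depth of the libraries is unknown and no counting interval is given. Synthetic ERCC spike-in RNA held most of the deposited total, and gene entries made up 10.4 ± 0.950% of it in Kelly, 14.4 ± 1.14% in BE(2)C, against 15.7 ± 0.504% in SH-SY5Y (SD, n = 3 each). MYCN stood at 5889 to 6044 scaled TPM in Kelly, 4803 to 6805 in BE(2)C, against 26.5 to 28.4 in SH-SY5Y. The noradrenergic neuroblastoma markers PHOX2A, HAND2, GATA3, ISL1 and DBH were present in every library. Of 7 markers of other cell types only CD68 and EPCAM passed the filter, with CD68 at no more than 8.60 scaled TPM, and KRT5, ALB and AFP were listed at 0 in every library. The spike-ins set Kelly apart: of 61 abundant ones, limma called 49 in Kelly against SH-SY5Y, 53 in Kelly against BE(2)C and 0 in BE(2)C against SH-SY5Y. Their largest shift was 1.42 on the log2 scale in Kelly against SH-SY5Y and 1.24 in Kelly against BE(2)C. A change in Kelly no larger than this cannot be told apart from a difference between its libraries and the others.

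The ribosomal protein genes together were a large block of the RNA in all 3 lines, with the lowest share in BE(2)C. They held 9.37 ± 0.0643% of the TPM total over genes in Kelly, 7.91 ± 0.802% in BE(2)C, against 9.67 ± 0.155% in SH-SY5Y (SD, n = 3 each). All 3 BE(2)C libraries were below the other 6. In the same libraries the mitochondrially encoded genes took 17.6 ± 1.87% in Kelly, 30.6 ± 5.52% in BE(2)C, against 17.7 ± 0.455% in SH-SY5Y. With those genes left out of the total, the ribosomal protein share was 11.4 ± 0.287% in Kelly, 11.4 ± 0.631% in BE(2)C, against 11.7 ± 0.236% in SH-SY5Y, and the ranges of the lines overlapped. In a bulk library, a share of the total does not give the amount of RNA per cell. The small subunit supplied 43.1 ± 0.382% of the summed level in Kelly, 41.0 ± 0.277% in BE(2)C, against 42.9 ± 0.183% in SH-SY5Y. The top 10 ribosomal protein genes of a library held on average 46.1% of that sum in Kelly, 42.1% in BE(2)C, against 43.3% in SH-SY5Y. These sums thus weigh a few genes most, and levels are hard to compare between genes, as given below.

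**Figure D1:**
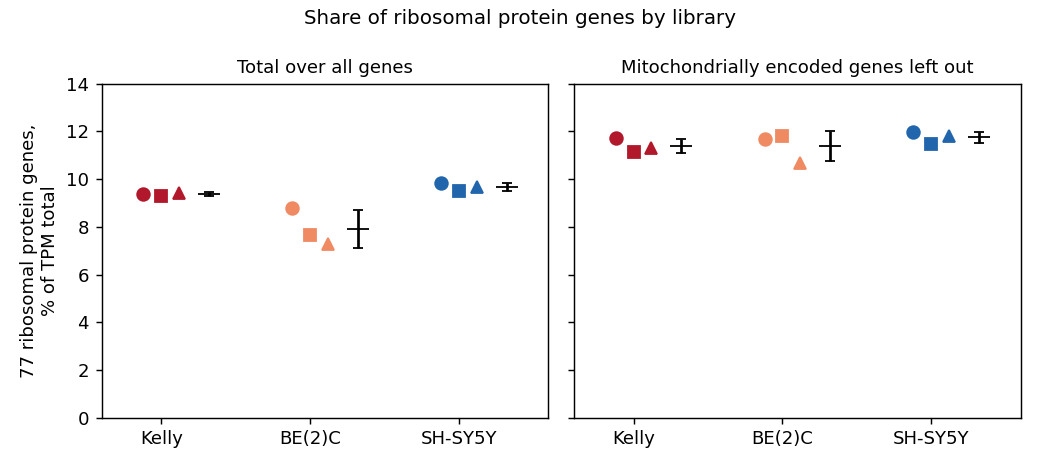
Percent of the TPM total held by the 77 ribosomal protein genes in each library (circles replicate 1, squares 2, triangles 3), for Kelly, BE(2)C and SH-SY5Y, with the mean and SD of each line as black bars. On the left the total runs over all genes and the BE(2)C mean is 7.91%; on the right the mitochondrially encoded genes are left out and the means are 11.4%, 11.4% and 11.7%.

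Levels of single members spanned a wide range. RPS19 reached 6186 scaled TPM in a Kelly library, while RPS18, a head protein of the small subunit, stood between 0 and 0.916 in all 9 libraries and was not tested. RPS18 belongs to the ribosome of every cell. The level of a member moved with the number of its transcripts in GENCODE release 29. Across the 77 genes, Spearman's rho between the 2 was -0.62, given as a description over genes that share the same libraries. The 16 members with a mean under 100 had a median of 13 annotated transcripts, against 6 for the 27 members at 1000 or more. All further comparisons are therefore made within a gene, between lines. Within a line, the median coefficient of variation of members at 100 or more was 6.37% in Kelly, 10.1% in BE(2)C, against 4.17% in SH-SY5Y, and that of members at 10 to 100 was 17.8% in Kelly, 22.9% in BE(2)C, against 23.8% in SH-SY5Y.

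In BE(2)C against SH-SY5Y, more ribosomal protein genes were higher than lower under the main scaling. Gene totals only, the values as deposited and quantile normalization each gave more lower than higher. With the main scaling limma called 35 of the 76 tested higher, 13 lower and 28 neither at an adjusted p under 0.05. Over all 13077 genes, 59.4% were called, 28.6% higher and 30.7% lower. Under all 5 other scalings, 6 of the 35 higher calls and all 13 lower calls held. Those scalings lowered the median of these genes or left it near 0.25. A lower call was thus easier to keep than a higher one. The genes with the largest increases included RPL21, RPS23, RPS15, RPL9, RPLP0 and RPS12, and those with the largest decreases RPL8, RPS9, RPL27A and RPLP2. Both subunits took part, with 20 of 46 large and 15 of 30 small subunit genes higher and 8 and 5 lower. The median log2 fold change was 0.25, against -0.038 over all genes tested, and its sign depended on the scaling, as given below. Of the increases 7 reached 2-fold and of the decreases 2, where 12% of all genes were higher and 16.6% lower by at least that much.

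In Kelly against SH-SY5Y, the genes split evenly under the main scaling, while the values as deposited gave 5 higher and 55 lower. With the main scaling limma called 22 higher, 22 lower and 32 neither, where 55.3% of all genes were called, 28.1% higher and 27.2% lower. RPL7A, RPS3A, RPL9, RPL35A and RPS12 led the increases, and RPL27A, RPL31, RPLP2, RPS25 and RPS7 the decreases. Of the large subunit, 14 were higher and 12 lower, and of the small subunit 8 were higher and 10 lower. Of these, 5 and 5 reached 2-fold, where 12.1% of all genes were higher and 13.4% lower by that much. The median was 0.0022 for the ribosomal protein genes and -0.0043 for all genes.

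In Kelly against BE(2)C, lower calls outnumbered higher ones under the main scaling, while gene totals only gave 26 higher and 17 lower. With the main scaling limma called 11 higher, 31 lower and 34 neither, where 52.5% of all genes were called, 27.9% higher and 24.6% lower. RPL8, RPS9, RPS19 and RPL11 were among the higher genes, and RPS25, RPL27A, RPS2 and RPLP0 among the lower ones. The large subunit had 6 higher and 19 lower, and the small subunit 5 higher and 12 lower. Of these, 2 of the higher and 8 of the lower genes reached 2-fold, where 12.8% and 9.54% of all genes did. The median was -0.23, against 0.025 over all genes.

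**Figure D2:**
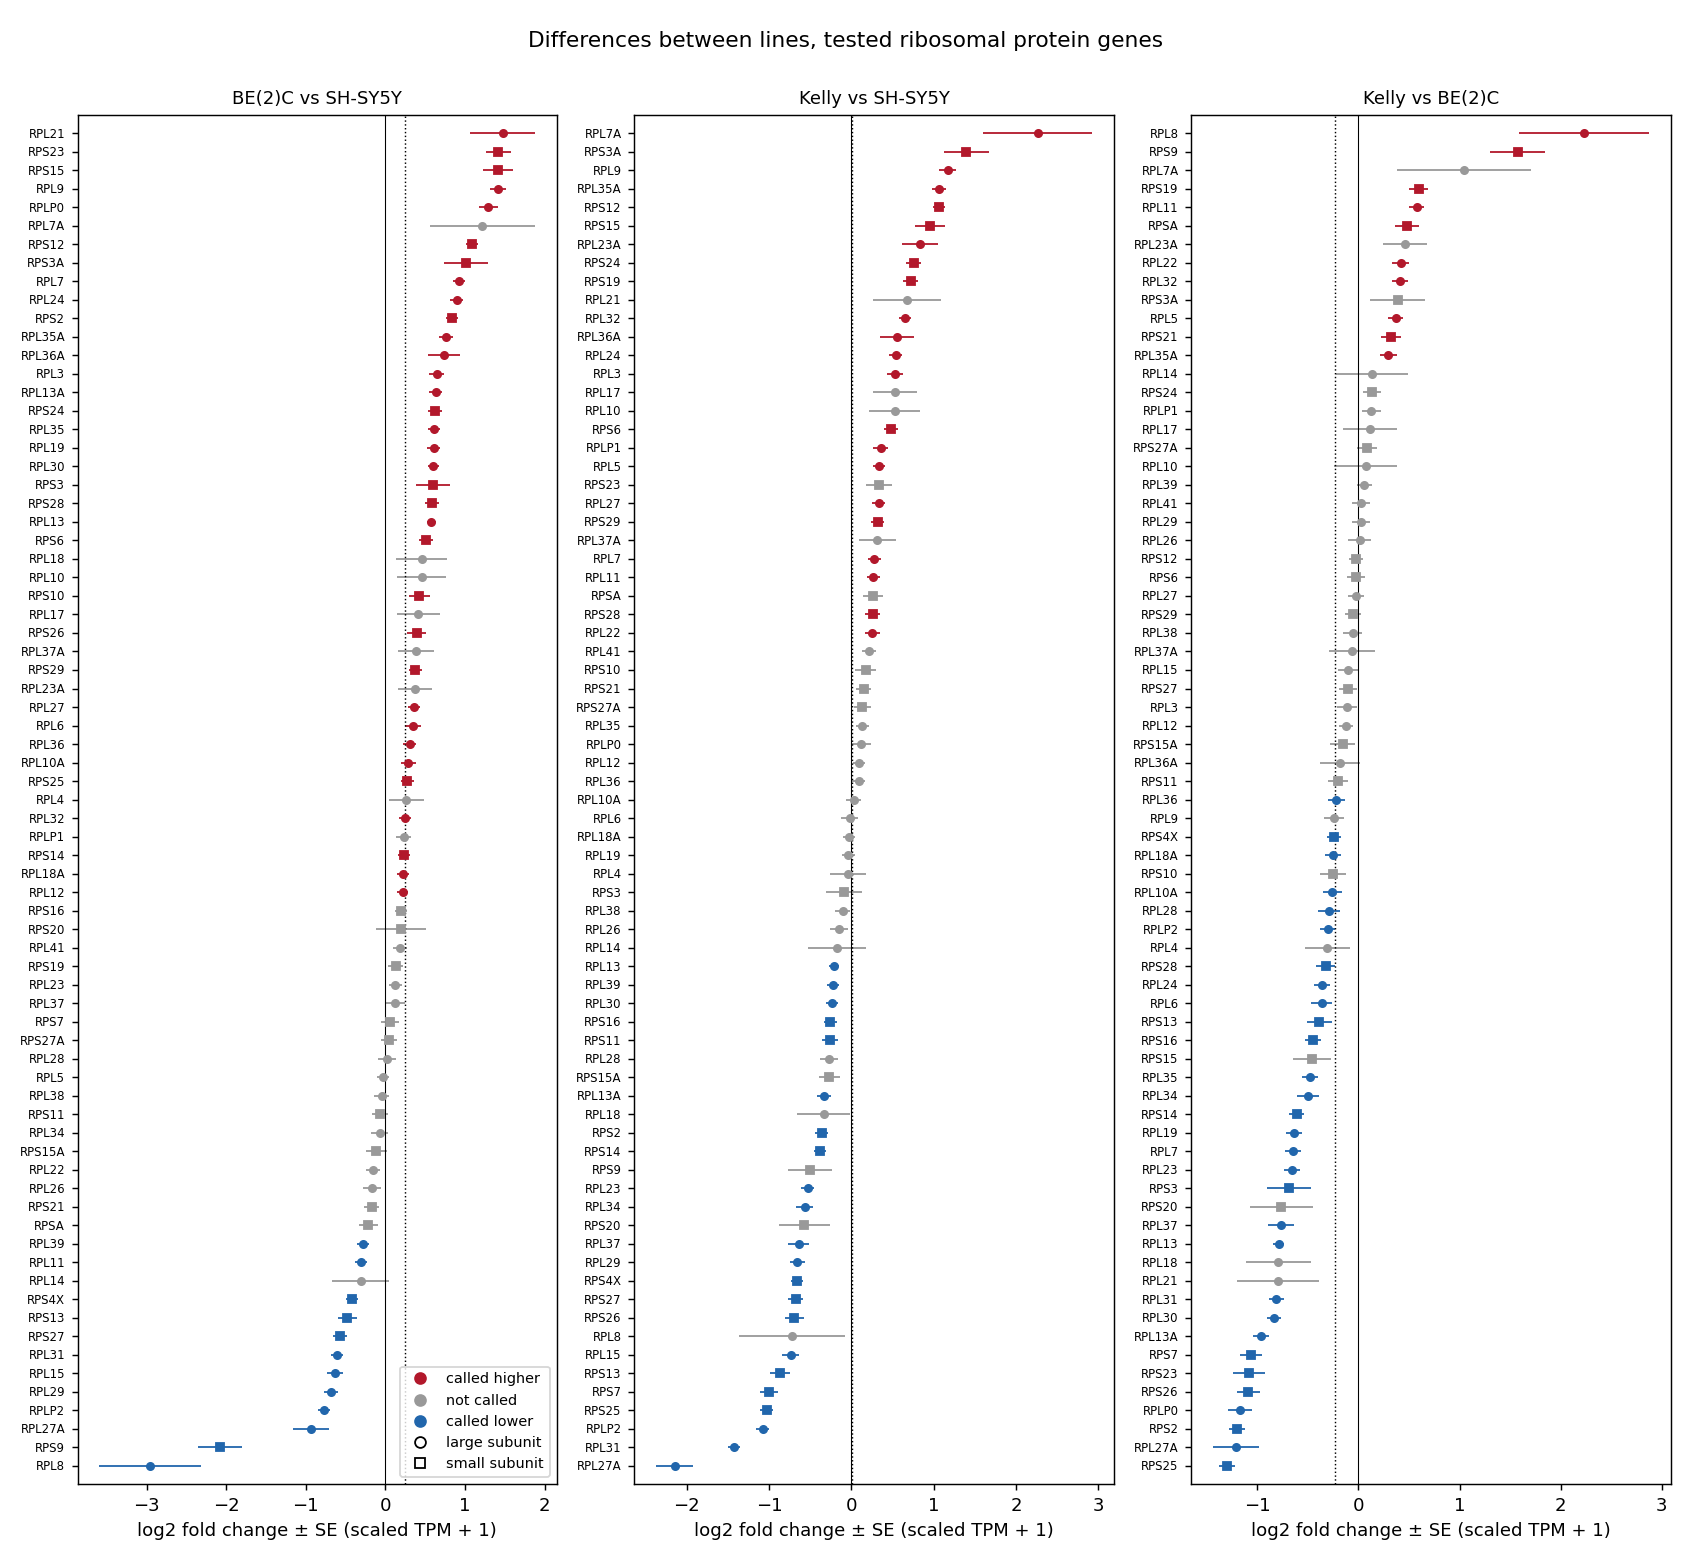
Log2 fold change with its standard error for 73 of the 76 tested ribosomal protein genes, sorted within each comparison (circles large subunit, squares small subunit; red called higher, blue called lower, grey not called; dotted line, median of all 76). Over all 76, calls counted 35 higher and 13 lower in BE(2)C against SH-SY5Y, 22 and 22 in Kelly against SH-SY5Y, and 11 and 31 in Kelly against BE(2)C, under the main scaling; the medians change sign under other scalings.

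The shift of the whole group depended on how libraries were put on one scale, while part of the single-gene differences did not. With gene totals only, the median in BE(2)C against SH-SY5Y was -0.20, with quantile normalization -0.052 and with the values as deposited -0.33. Over all genes tested, gene totals alone gave medians of -0.44 in BE(2)C against SH-SY5Y, -0.13 in Kelly against SH-SY5Y and 0.31 in Kelly against BE(2)C. Relative to the median of all genes, the ribosomal protein genes of BE(2)C stood 0.29 above SH-SY5Y under the main scaling, 0.24 above with gene totals, 0.12 above as deposited and 0.079 below with quantile normalization. In Kelly against BE(2)C their median less that of all genes was -0.25 under the main scaling, -0.21 with gene totals, -0.25 as deposited and -0.078 with quantile normalization. In Kelly against SH-SY5Y it was 0.0065 under the main scaling, -0.0061 with gene totals, -0.079 as deposited and -0.20 with quantile normalization. Under all 5 other scalings, one of which centred each library on the median of these genes themselves and was chosen after seeing the data, the 13 lower calls of BE(2)C against SH-SY5Y were kept, and 6 of the 35 higher calls. In Kelly against SH-SY5Y, 20 of 22 lower and 5 of 22 higher calls were kept, and in Kelly against BE(2)C 17 of 31 lower and 4 of 11 higher calls. A call named as kept below is one of these. Against SH-SY5Y, most of the other scalings lowered the median of these genes, to as low as -0.33 in BE(2)C and -0.63 in Kelly. There a lower call was easier to keep than a higher one, so the counts kept do not compare the directions.

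**Figure D3:**
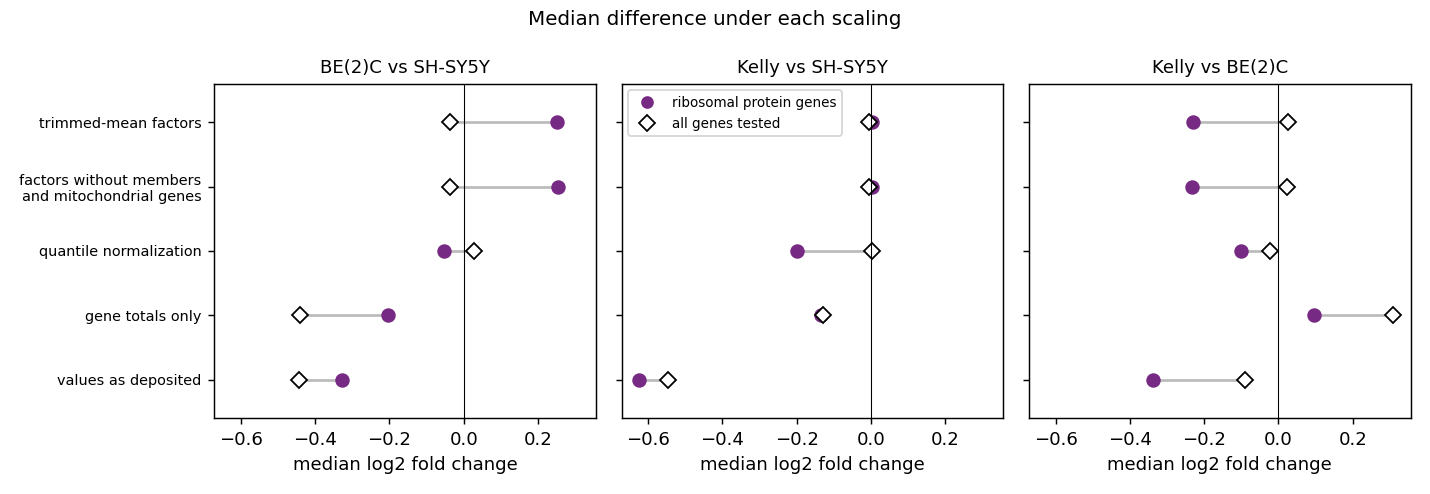
Median log2 fold change of the ribosomal protein genes (filled circles) and of all genes tested (open diamonds) under 5 scalings of the libraries, for each comparison. In BE(2)C against SH-SY5Y the circle lies at 0.25 under trimmed-mean factors and at -0.052 to -0.33 under quantile normalization, gene totals and the deposited values.

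Under the main scaling, a set of genes separated both amplified lines from SH-SY5Y in every library. For 10 of the 76 (13.2%), all 6 libraries of Kelly and BE(2)C were below all 3 of SH-SY5Y, where 20.4% of all genes showed this. These were RPL8, RPL15, RPL27A, RPL29, RPL31, RPL39, RPLP2, RPS4X, RPS13 and RPS27. For 17 (22.4%), all 6 were above, where 19% of all genes were. These were RPL3, RPL7, RPL9, RPL12, RPL24, RPL27, RPL32, RPL35, RPL35A, RPL36A, RPS3A, RPS6, RPS12, RPS15, RPS24, RPS28 and RPS29. Of these, RPL9 and RPS12 were called higher in both lines under all 5 other scalings. RPL12, RPL27, RPL32, RPS6 and RPS29 came out below SH-SY5Y in both lines under at least 1 of them, with RPL12 as low as -0.62 in Kelly and -0.36 in BE(2)C, and RPL3, RPL7, RPL24, RPL35, RPL36A and RPS28 did so in Kelly. The genes with lower levels were called lower in both lines under all 5, except RPL8, which was not called in Kelly. The first share is below that over all genes and the second is close to it. Both amplified lines were set against the same 3 SH-SY5Y libraries.

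The ribosomal stalk recruits and activates the GTPase factors of translation, and its 3 genes did not move together. RPLP0, which anchors the stalk to the large subunit, stood at 50.3, 57.8 and 64.4 scaled TPM in Kelly libraries, 113, 143 and 135 in BE(2)C libraries and 50.7, 56.6 and 50.4 in SH-SY5Y libraries. All 3 BE(2)C libraries were above the other 6, and Kelly and SH-SY5Y overlapped. The log2 fold change was 1.29 ± 0.12 log2 units (SE, limma adjusted p = 1.27e-05) in BE(2)C against SH-SY5Y and -1.17 ± 0.12 log2 units (SE, limma adjusted p = 3.35e-05) in Kelly against BE(2)C, both kept under the other scalings, and 0.12 ± 0.12 log2 units (SE, limma adjusted p = 0.405) in Kelly against SH-SY5Y. RPLP2, which pairs with RPLP1 on RPLP0, stood at 566, 593 and 589 scaled TPM in Kelly libraries, 751, 770.5 and 646 in BE(2)C libraries and 1179, 1193 and 1323 in SH-SY5Y libraries. Every library of SH-SY5Y was above every one of BE(2)C, and those were above all of Kelly. RPLP2 was lower in both amplified lines than in SH-SY5Y, with -1.08 ± 0.08 log2 units (SE, limma adjusted p = 3.71e-06) in Kelly and -0.77 ± 0.08 log2 units (SE, limma adjusted p = 2.77e-05) in BE(2)C, and both calls were kept. Between Kelly and BE(2)C the difference was -0.31 ± 0.08 log2 units (SE, limma adjusted p = 0.00916), which came to 0.018 with gene totals only. RPLP1 stood at 4780.1, 4911 and 4815 scaled TPM in Kelly libraries, 4692, 4859 and 3810.3 in BE(2)C libraries and 3878, 3744 and 3706 in SH-SY5Y libraries. Kelly was above SH-SY5Y in every library (0.36 ± 0.09 log2 units, SE, limma adjusted p = 0.00934), a difference of -0.36 in the values as deposited, while BE(2)C replicate 3 overlapped SH-SY5Y (0.23 ± 0.09 log2 units, SE, limma adjusted p = 0.0574). Without that library the RPLP1 value in BE(2)C was 0.34 with an adjusted p of 0.000662.

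RPL5 and RPL11 carry 5S rRNA into the large subunit and, when unassembled, bind MDM2. RPL11 stood at 4794, 4243 and 4532 scaled TPM in Kelly libraries, 3007, 3276 and 2828 in BE(2)C libraries and 3868, 3696 and 3698 in SH-SY5Y libraries. Kelly was highest, SH-SY5Y next and BE(2)C lowest, with no overlap between lines. RPL11 was higher in Kelly than in BE(2)C (0.58 ± 0.08 log2 units, SE, limma adjusted p = 0.000219) and lower in BE(2)C than in SH-SY5Y (-0.31 ± 0.08 log2 units, SE, limma adjusted p = 0.00699), and both calls were kept. Its difference in Kelly against SH-SY5Y was 0.27 ± 0.08 log2 units (SE, limma adjusted p = 0.0153), and the adjusted p rose to 0.0521 without Kelly replicate 1, 0.0524 without SH-SY5Y replicate 2 and 0.0538 without SH-SY5Y replicate 3. The direction of RPL11 turned with the values as deposited, at -0.45, and with quantile normalization, at -0.19. RPL5 stood at 2979, 2628 and 2729 scaled TPM in Kelly libraries, 2167, 2271 and 2013 in BE(2)C libraries and 2287, 2133 and 2183 in SH-SY5Y libraries. Kelly exceeded both other lines, which overlapped. The differences of RPL5 were 0.33 ± 0.07 log2 units (SE, limma adjusted p = 0.00349) against SH-SY5Y, where the deposited values gave -0.38, and 0.37 ± 0.07 log2 units (SE, limma adjusted p = 0.00216) against BE(2)C. MDM2 itself averaged 47.6 ± 2.04 in Kelly, 37.6 ± 6.56 in BE(2)C, against 37.2 ± 2.63 in SH-SY5Y, on the scaled TPM scale (SD, n = 3 each). Of 5 tested genes for 5S particle assembly and MDM2 control, 2 were higher and 0 lower in BE(2)C against SH-SY5Y, 3 and 0 in Kelly against SH-SY5Y, and 1 and 1 in Kelly against BE(2)C. Over all genes the shares were 28.6% higher and 30.7% lower in BE(2)C against SH-SY5Y, 28.1% and 27.2% in Kelly against SH-SY5Y, and 27.9% and 24.6% in Kelly against BE(2)C, and so few genes give no result about that list. RRS1, an assembly factor of the 5S particle, had log2 fold changes of 0.71 in BE(2)C and 0.38 in Kelly against SH-SY5Y, and MDM4, the partner of MDM2, one of 1.53 in Kelly against SH-SY5Y.

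At the exit of the peptide tunnel, where nascent chains meet processing factors, RPL31 had a separate level in each line. It stood at 108, 109.6 and 98.5 scaled TPM in Kelly libraries, 175, 196 and 187 in BE(2)C libraries and 302, 265 and 285 in SH-SY5Y libraries. The lines did not overlap, with Kelly lowest and SH-SY5Y highest. The differences were -1.42 ± 0.07 log2 units (SE, limma adjusted p = 4.47e-07) in Kelly and -0.61 ± 0.07 log2 units (SE, limma adjusted p = 9.24e-05) in BE(2)C against SH-SY5Y, and -0.81 ± 0.07 log2 units (SE, limma adjusted p = 1.96e-05) in Kelly against BE(2)C, and all 3 calls were kept. RPL39, which lines the tunnel itself, stood at 2716, 2501 and 2664 scaled TPM in Kelly libraries, 2588, 2647 and 2341 in BE(2)C libraries and 3188, 2910.4 and 3128 in SH-SY5Y libraries. Both amplified lines were below SH-SY5Y, with log2 fold changes of -0.23 ± 0.07 in Kelly and -0.29 ± 0.07 in BE(2)C (SE), and both calls were kept. RPL23A, a docking point of the signal recognition particle, was at 85.1, 56.2 and 72.02 scaled TPM in Kelly libraries, 39.7, 60.9 and 53.5 in BE(2)C libraries and 47.00, 29.7 and 42.2 in SH-SY5Y libraries. Its higher level in Kelly (0.83 ± 0.22 log2 units, SE, limma adjusted p = 0.00985) was not called with the values as deposited, at 0.12, and Kelly and BE(2)C overlapped. RPL22, a protein also known to bind viral and cellular RNAs, stood at 423, 384 and 449.6 scaled TPM in Kelly libraries, 344, 317 and 281 in BE(2)C libraries and 344, 339 and 369 in SH-SY5Y libraries. Kelly was above both other lines in every library, by 0.42 ± 0.09 log2 units (SE, limma adjusted p = 0.00314) against BE(2)C and 0.25 ± 0.09 log2 units (SE, limma adjusted p = 0.0331) against SH-SY5Y. The second call was lost, with adjusted p between 0.0792 and 0.114, without Kelly replicate 1 or 3 or without SH-SY5Y replicate 1 or 2, and the values as deposited turned it to -0.45. They also lost the first call, at 0.27. Over the 9 genes listed for the exit, 2 were higher and 2 lower in BE(2)C against SH-SY5Y (all genes 28.6% and 30.7%), 2 and 2 in Kelly against SH-SY5Y (28.1% and 27.2%), and 1 and 3 in Kelly against BE(2)C (27.9% and 24.6%).

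Among other large subunit proteins, RPL27A had the largest decrease in Kelly. RPL27A stood at 39.9, 59.7 and 37.8 scaled TPM in Kelly libraries, 136, 107 and 80.1 in BE(2)C libraries and 166, 225 and 219.8 in SH-SY5Y libraries. The lines did not overlap, with Kelly lowest. The difference was -2.15 ± 0.23 log2 units (SE, limma adjusted p = 4.16e-05) in Kelly against SH-SY5Y, -0.93 ± 0.23 log2 units (SE, limma adjusted p = 0.00589) in BE(2)C against SH-SY5Y and -1.21 ± 0.23 log2 units (SE, limma adjusted p = 0.00163) in Kelly against BE(2)C, and all 3 calls were kept. The first exceeds the largest shift of a spike-in. RPL29, a small basic protein, stood at 375, 312 and 335 scaled TPM in Kelly libraries, 355, 355 and 294 in BE(2)C libraries and 544, 534 and 534 in SH-SY5Y libraries, and RPL15, a gene mutated in Diamond-Blackfan anaemia, at 245, 182 and 207 scaled TPM in Kelly libraries, 225, 214 and 236 in BE(2)C libraries and 344, 341 and 367 in SH-SY5Y libraries. For both genes SH-SY5Y was above all 6 other libraries and Kelly and BE(2)C overlapped. The log2 fold change of RPL29 was -0.66 ± 0.09 in Kelly and -0.69 ± 0.09 in BE(2)C against SH-SY5Y (SE). That of RPL15 was -0.74 ± 0.10 in Kelly and -0.64 ± 0.10 in BE(2)C (SE). The highest limma adjusted p of the 4 was 0.000494, and all 4 calls were kept.

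RPL9, which lies near the factor-binding site, had the opposite pattern. RPL9 stood at 504, 439 and 489.8 scaled TPM in Kelly libraries, 601, 599.7 and 496 in BE(2)C libraries and 234, 196 and 207 in SH-SY5Y libraries. Both amplified lines were above SH-SY5Y in every library and overlapped each other. The differences were 1.41 ± 0.10 log2 units (SE, limma adjusted p = 2.58e-06) in BE(2)C and 1.17 ± 0.10 log2 units (SE, limma adjusted p = 9.7e-06) in Kelly against SH-SY5Y, both kept. RPL35A, another Diamond-Blackfan gene, stood at 1894, 1659.7 and 1760.1 scaled TPM in Kelly libraries, 1516, 1511 and 1304 in BE(2)C libraries and 919, 781 and 846 in SH-SY5Y libraries. Kelly was highest and SH-SY5Y lowest without overlap. The increase in Kelly against SH-SY5Y, 1.06 ± 0.09 log2 units (SE, limma adjusted p = 8.6e-06), was kept, while that in BE(2)C, 0.77 ± 0.09 log2 units (SE, limma adjusted p = 6.31e-05), was not kept under every scaling. RPL7 stood at 310.0, 280.3 and 280.0 scaled TPM in Kelly libraries, 463, 492 and 411 in BE(2)C libraries and 235, 233 and 248 in SH-SY5Y libraries. BE(2)C was above Kelly and Kelly above SH-SY5Y, and the increase in BE(2)C against SH-SY5Y (0.92 ± 0.08 log2 units, SE, limma adjusted p = 7.67e-06) was kept, while the RPL7 difference in Kelly against SH-SY5Y reached -0.42 under another scaling.

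Calls of several other large subunit genes rested on single libraries or on the scaling. RPL8, a protein of the peptidyl transferase centre, stood at 152, 151 and 182 scaled TPM in Kelly libraries, 126, 18.7 and 15.6 in BE(2)C libraries and 304, 293 and 213 in SH-SY5Y libraries. BE(2)C was below both other lines, but its replicate 1 was several times its replicates 2 and 3. RPL8 differed by -2.95 ± 0.64 log2 units (SE, limma adjusted p = 0.0032) in BE(2)C against SH-SY5Y and by 2.23 ± 0.64 log2 units (SE, limma adjusted p = 0.0159) in Kelly against BE(2)C, and the second adjusted p was 0.0591 without BE(2)C replicate 2 and 0.0553 without BE(2)C replicate 3. RPL7A stood at 69.9, 42.3 and 79.3 scaled TPM in Kelly libraries, 61.5, 36.9 and 10.8 in BE(2)C libraries and 8.23, 6.85 and 29.9 in SH-SY5Y libraries. Kelly was above SH-SY5Y in every library and BE(2)C overlapped both lines. The RPL7A difference in Kelly against SH-SY5Y was 2.26 ± 0.66 log2 units (SE, limma adjusted p = 0.0165), with an adjusted p of 0.0527 without Kelly replicate 3, 0.0552 without SH-SY5Y replicate 1 and 0.0587 without SH-SY5Y replicate 2. RPL21 stood at 23.02, 31.02 and 54.5 scaled TPM in Kelly libraries, 61.2, 50.6 and 68.3 in BE(2)C libraries and 11.4, 37.6 and 20.8 in SH-SY5Y libraries. It was above SH-SY5Y in BE(2)C (1.47 ± 0.41 log2 units, SE, limma adjusted p = 0.012), a call lost with gene totals only, at 1.02, and with the values as deposited, at 0.76. RPL32 stood at 546, 547 and 571 scaled TPM in Kelly libraries, 456, 421 and 377 in BE(2)C libraries and 355, 336 and 367 in SH-SY5Y libraries, with Kelly above BE(2)C (0.41 ± 0.07 log2 units, SE, limma adjusted p = 0.00139) and BE(2)C above SH-SY5Y, and the first call was lost in the values as deposited, at 0.27. The RPL32 difference in BE(2)C against SH-SY5Y was not kept either, and reached -0.33 under another scaling.

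RPL3 and RPL10 lie close to the catalytic centre of the large subunit. RPL3, which reaches into the peptidyl transferase centre, stood at 1083, 908 and 834 scaled TPM in Kelly libraries, 1004, 1088 and 950.3 in BE(2)C libraries and 684, 622 and 641 in SH-SY5Y libraries. Both amplified lines were above SH-SY5Y. The difference was 0.64 ± 0.10 log2 units (SE, limma adjusted p = 0.000376) in BE(2)C, which came to 0.18 with gene totals and was not called, and 0.53 ± 0.10 log2 units (SE, limma adjusted p = 0.00142) in Kelly, which was -0.18 in the deposited values. RPL10, one of the last proteins to join the subunit, stood at 62.7, 36.8 and 38.2 scaled TPM in Kelly libraries, 29.7, 57.4 and 44.3 in BE(2)C libraries and 39.04, 35.5 and 20.7 in SH-SY5Y libraries. The lines overlapped and no comparison was called. SH-SY5Y replicate 3 was the lowest, and without it the RPL10 difference was 0.18 in BE(2)C and 0.25 in Kelly, against 0.45 in BE(2)C and 0.52 in Kelly with all libraries.

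In the head of the small subunit, RPS12 and RPS15 were higher in the amplified lines and RPS25 set Kelly apart. RPS12 stood at 3679, 3565 and 3527 scaled TPM in Kelly libraries, 3819, 3852 and 3307 in BE(2)C libraries and 1755, 1674 and 1736 in SH-SY5Y libraries. Kelly and BE(2)C overlapped, and both were above SH-SY5Y in every library. The differences were 1.08 ± 0.07 log2 units (SE, limma adjusted p = 1.82e-06) in BE(2)C and 1.06 ± 0.07 log2 units (SE, limma adjusted p = 2.41e-06) in Kelly against SH-SY5Y, both kept. RPS15, near the decoding site, stood at 63.6, 45.2 and 60.8 scaled TPM in Kelly libraries, 75.7, 74.4 and 81.9 in BE(2)C libraries and 21.1, 33.8 and 31.99 in SH-SY5Y libraries. From high to low the order was BE(2)C, Kelly, SH-SY5Y, and the increase in BE(2)C (1.41 ± 0.18 log2 units, SE, limma adjusted p = 0.000146) was kept, while that in Kelly (0.95 ± 0.18 log2 units, SE, limma adjusted p = 0.00189) was lost with the deposited values, at 0.22. RPS25, which several viral internal ribosome entry sites require, stood at 248, 244 and 263 scaled TPM in Kelly libraries, 648, 673 and 553 in BE(2)C libraries and 524, 488 and 531 in SH-SY5Y libraries. All 3 Kelly libraries were far below the others, and the 3 lines did not overlap. The difference in Kelly was -1.30 ± 0.08 log2 units (SE, limma adjusted p = 1.63e-06) against BE(2)C and -1.03 ± 0.08 log2 units (SE, limma adjusted p = 5.29e-06) against SH-SY5Y, both kept. The first exceeds the largest spike-in shift of that comparison, 1.24, under the main scaling. It came to -0.98 under another scaling, which is smaller than that shift.

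RPS19, the gene most often mutated in Diamond-Blackfan anaemia, stood at 6186, 5394 and 5839.8 scaled TPM in Kelly libraries, 3952, 4196 and 3407 in BE(2)C libraries and 3625, 3433 and 3487 in SH-SY5Y libraries. Kelly was above the other lines, and BE(2)C and SH-SY5Y overlapped. Its increase in Kelly was 0.60 ± 0.09 log2 units (SE, limma adjusted p = 0.000501) against BE(2)C, which was kept, and 0.72 ± 0.09 log2 units (SE, limma adjusted p = 0.000133) against SH-SY5Y, which came to 0.0066 in the deposited values. In BE(2)C against SH-SY5Y, RPS19 differed by 0.13 ± 0.09 log2 units (SE, limma adjusted p = 0.257), and the adjusted p was 0.0311 without BE(2)C replicate 3. Over the 13 tested head proteins, 8 were higher and 0 lower in BE(2)C against SH-SY5Y (all genes 28.6% and 30.7%), 5 and 2 in Kelly against SH-SY5Y (28.1% and 27.2%), and 1 and 5 in Kelly against BE(2)C (27.9% and 24.6%). Under the main scaling their median was 0.37 in BE(2)C against SH-SY5Y, against -0.038 over all genes.

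RPS2, RPS3 and RPS9 form the entry of the mRNA channel. RPS2 stood at 165, 178 and 153 scaled TPM in Kelly libraries, 411, 357 and 376 in BE(2)C libraries and 213, 203 and 222 in SH-SY5Y libraries. The lines did not overlap, with BE(2)C highest and Kelly lowest. The difference in Kelly was -1.20 ± 0.08 log2 units (SE, limma adjusted p = 2.47e-06) against BE(2)C and -0.36 ± 0.08 log2 units (SE, limma adjusted p = 0.0033) against SH-SY5Y, both kept. The increase in BE(2)C against SH-SY5Y, 0.84 ± 0.08 log2 units (SE, limma adjusted p = 1.57e-05), was not kept under every scaling. RPS9 was low in all lines, at 6.37, 6.501 and 9.03 scaled TPM in Kelly libraries, 2.68, 1.54 and 1.25 in BE(2)C libraries and 12.9, 12.6 and 7.41 in SH-SY5Y libraries. BE(2)C was below all other libraries, with -2.08 ± 0.27 log2 units (SE, limma adjusted p = 0.000144) against SH-SY5Y and 1.57 ± 0.27 log2 units (SE, limma adjusted p = 0.00104) for Kelly against BE(2)C, both kept. The BE(2)C levels of RPS9 lie close to the filter of 1 scaled TPM, so the size of its differences is uncertain. RPS3 stood between 22.9 and 51.6 in all libraries, and Kelly was called lower than BE(2)C (-0.69 ± 0.22 log2 units, SE, limma adjusted p = 0.0248). Their libraries overlapped, and the call was not kept under every scaling.

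At the exit of the channel, RPS26 was lower and RPSA higher in Kelly than in BE(2)C. RPS26, a Diamond-Blackfan gene that contacts mRNA just before the start codon, stood at 248, 318 and 292 scaled TPM in Kelly libraries, 689, 581 and 555 in BE(2)C libraries and 483, 414 and 491 in SH-SY5Y libraries. Under the main scaling BE(2)C was above SH-SY5Y and SH-SY5Y above Kelly, without overlap. The RPS26 difference in BE(2)C against SH-SY5Y, 0.39, was not kept and reached -0.18 under another scaling. The difference in Kelly was -1.09 ± 0.12 log2 units (SE, limma adjusted p = 5.46e-05) against BE(2)C and -0.70 ± 0.12 log2 units (SE, limma adjusted p = 0.000788) against SH-SY5Y, both kept. RPSA, also known as the laminin receptor, stood at 694, 736 and 704 scaled TPM in Kelly libraries, 583, 558 and 405 in BE(2)C libraries and 596, 592 and 588 in SH-SY5Y libraries. Counted alone, it was higher in every Kelly library than in any library of the other lines. RPSA was higher in Kelly than in BE(2)C by 0.48 ± 0.12 log2 units (SE, limma adjusted p = 0.00776), a value of 0.32 without BE(2)C replicate 3 and of 0.34, not called, with the values as deposited, and differed by -0.22 ± 0.12 log2 units (SE, limma adjusted p = 0.145) in BE(2)C against SH-SY5Y. A near-identical copy, RPSAP58, stood at 2.51, 0.1803 and 4.45 scaled TPM in Kelly libraries, 0.326, 0.562 and 2.05 in BE(2)C libraries and 293, 207 and 229 in SH-SY5Y libraries, so the reads of RPSA may be split between the 2 entries. With both summed, a step chosen after seeing the data, RPSA was lower in BE(2)C than in SH-SY5Y, at a log2 fold change of -0.71 with an adjusted p of 0.000824 by limma. The sum was 697, 736 and 708 scaled TPM in Kelly libraries, against 889, 799 and 817 in SH-SY5Y libraries, so that Kelly was below SH-SY5Y in every library, with a log2 fold change of -0.22 (limma adjusted p = 0.149), where RPSA alone had 0.26 and was not called. RPS10 shares exons with the read-through entry RPS10-NUDT3, which stood at 13.99, 1.54 and 23.3 scaled TPM in Kelly libraries, 86.2, 77.03 and 24.5 in BE(2)C libraries and at no more than 1.48 in any SH-SY5Y library, and its own levels in BE(2)C are uncertain to that extent.

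Other small subunit genes split in the same way. RPS27, a zinc finger protein, stood at 2616, 2625 and 2674 scaled TPM in Kelly libraries, 3021, 3046 and 2489 in BE(2)C libraries and 4285, 3944 and 4464 in SH-SY5Y libraries, and RPS4X, encoded on the X chromosome, at 2072, 1868 and 1856 scaled TPM in Kelly libraries, 2345, 2385 and 2122 in BE(2)C libraries and 3187, 3010.4 and 2975 in SH-SY5Y libraries. All 6 amplified-line libraries were below SH-SY5Y for both genes. The log2 fold change of RPS27 was -0.68 ± 0.09 in Kelly and -0.57 ± 0.09 in BE(2)C against SH-SY5Y (SE). That of RPS4X was -0.66 ± 0.07 in Kelly and -0.42 ± 0.07 in BE(2)C (SE). The highest limma adjusted p of the 4 was 0.00082, and all 4 calls were kept. RPS13, which bridges the subunits, stood at 572, 569 and 589.7 scaled TPM in Kelly libraries, 860.3, 836 and 599 in BE(2)C libraries and 1084, 1018 and 1061 in SH-SY5Y libraries. The lines did not overlap, and the difference was -0.87 ± 0.12 log2 units (SE, limma adjusted p = 0.000266) in Kelly and -0.48 ± 0.12 log2 units (SE, limma adjusted p = 0.00756) in BE(2)C against SH-SY5Y, both kept. RPS7 stood at 182, 162 and 208 scaled TPM in Kelly libraries, 384, 431 and 340.0 in BE(2)C libraries and 386, 339 and 381 in SH-SY5Y libraries. Kelly was below the other lines, which overlapped, with -1.002 ± 0.11 log2 units (SE, limma adjusted p = 6.02e-05) against SH-SY5Y and -1.06 ± 0.11 log2 units (SE, limma adjusted p = 4.98e-05) against BE(2)C, both kept.

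RPS23 sits at the decoding centre and affects the accuracy of translation. RPS23 stood at 89.8, 111 and 113 scaled TPM in Kelly libraries, 220.1, 231 and 213 in BE(2)C libraries and 107, 68.5 and 76.1 in SH-SY5Y libraries. All BE(2)C libraries were above the others, and Kelly overlapped SH-SY5Y. The increase was 1.42 ± 0.16 log2 units (SE, limma adjusted p = 4.55e-05) in BE(2)C against SH-SY5Y, and the difference of Kelly against BE(2)C was -1.08 ± 0.16 log2 units (SE, limma adjusted p = 0.000338), both kept. RPS3A stood at 96.4, 80.8 and 87.5 scaled TPM in Kelly libraries, 71.2, 75.3 and 56.2 in BE(2)C libraries and 53.8, 21.7 and 29.97 in SH-SY5Y libraries. Kelly was highest and SH-SY5Y lowest. The increase in Kelly (1.40 ± 0.27 log2 units, SE, limma adjusted p = 0.002) was kept, and that in BE(2)C (1.01 ± 0.27 log2 units, SE, limma adjusted p = 0.0105) was lost with gene totals only, at 0.56, and in the deposited values, at 0.39. RPS24 stood at 923, 930.1 and 1002 scaled TPM in Kelly libraries, 917, 957 and 742 in BE(2)C libraries and 570.4, 546 and 573 in SH-SY5Y libraries, with both amplified lines above SH-SY5Y. Its increase in Kelly (0.75 ± 0.09 log2 units, SE, limma adjusted p = 0.000107) was lost in the deposited values, at 0.039. The RPS24 increase in BE(2)C, 0.62, was not kept either and came to 0.047 under another scaling.

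RPS6, the substrate of S6 kinase downstream of mTOR, stood at 5257, 4422 and 4685 scaled TPM in Kelly libraries, 4696, 5299.9 and 4618 in BE(2)C libraries and 3497, 3305 and 3445 in SH-SY5Y libraries. Both amplified lines were above SH-SY5Y, by 0.51 ± 0.09 log2 units (SE, limma adjusted p = 0.000736) in BE(2)C and 0.48 ± 0.09 log2 units (SE, limma adjusted p = 0.00116) in Kelly under the main scaling, but the deposited values gave -0.065 for BE(2)C and -0.23 for Kelly. RPS27A, made as a fusion with ubiquitin, stood at 549, 475 and 491 scaled TPM in Kelly libraries, 511, 516 and 405 in BE(2)C libraries and 476, 436 and 468 in SH-SY5Y libraries and was called in no comparison under the main scaling. In all, 13 genes were called in none, among them RPL4, RPL10, RPL14, RPL17, RPL18, RPL26, RPL37A, RPL38, RPL41, RPS15A, RPS20 and RPS27A. RPL38, for example, ranged from 3049 to 3749 over all 9 libraries with a median of 3528, and RPL41 from 2455 to 3169. RPL18 ranged from 1.03 to 4.82, close to the filter.

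**Figure D4:**
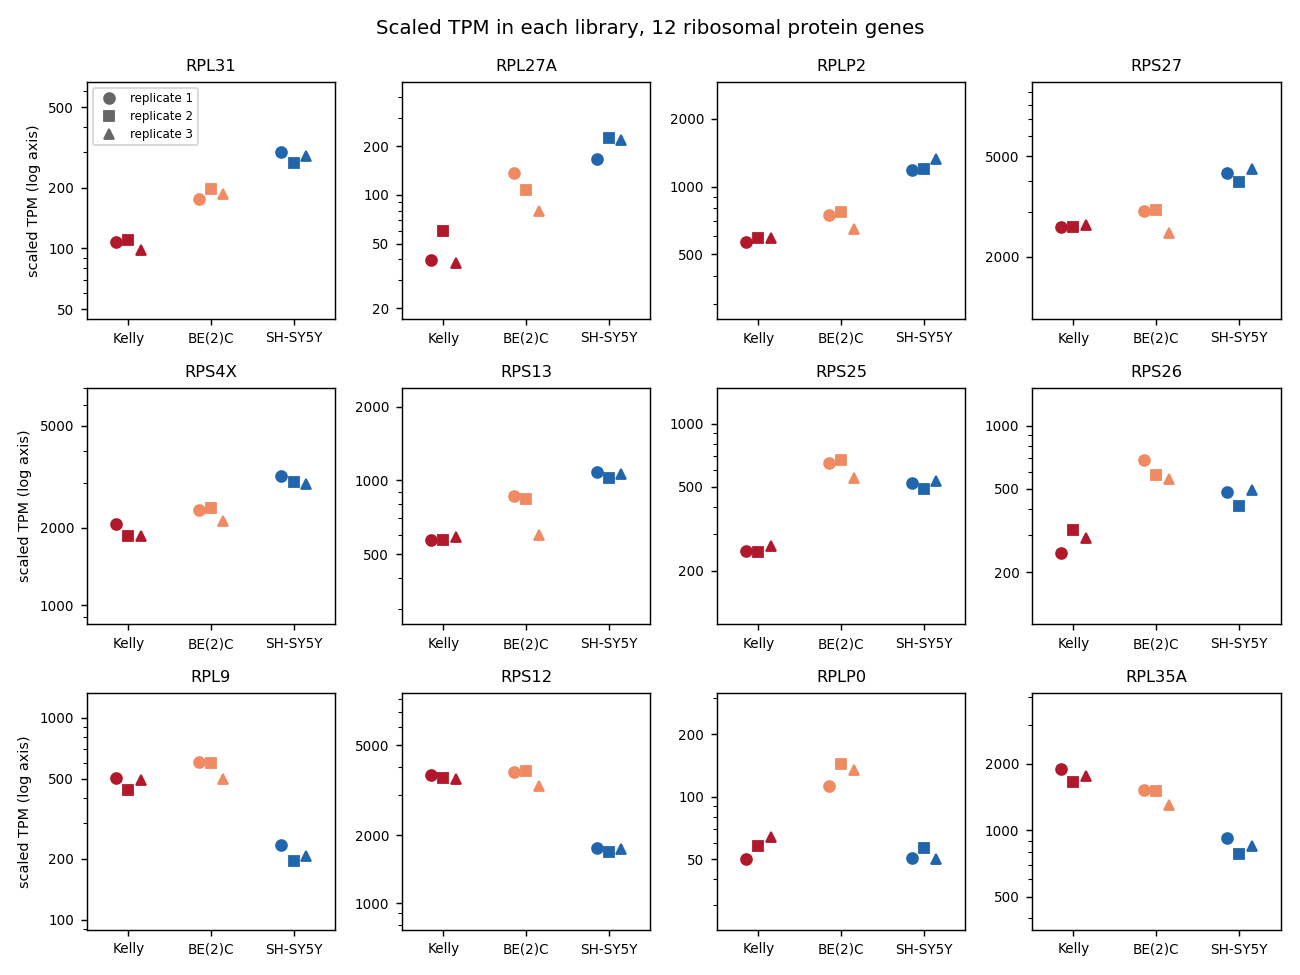
Scaled TPM on a log axis in each of the 3 libraries (circle, square and triangle for replicates 1, 2 and 3) of Kelly, BE(2)C and SH-SY5Y, for 12 ribosomal protein genes. RPL31, RPL27A, RPLP2 and RPS13 step up in the order Kelly, BE(2)C, SH-SY5Y without overlap, RPS25 is low in Kelly alone at 244 to 263, RPLP0 is high in BE(2)C at 113 to 143, and RPL9 and RPS12 are higher in both amplified lines.

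Some of the genes lie on chromosome arms that neuroblastomas often lose (1p, 3p, 11q) or gain (17q). RPL5, RPL11 and RPL22 lie on 1p, and all 3 were higher in Kelly than in BE(2)C, while RPL11 was lower in BE(2)C than in SH-SY5Y and RPL5 and RPL22 were not called there. In Kelly against BE(2)C the call of RPL11 was kept, and those of RPL5 and RPL22 were lost with the values as deposited. On 11q lie RPS3 and RPS25, and both were lower in Kelly than in BE(2)C and both above SH-SY5Y in BE(2)C, and of these 4 calls only that of RPS25 in Kelly against BE(2)C was kept. On 3p (RPL14, RPL15, RPL29, RPL32 and RPSA) 1 gene was higher and 2 lower in BE(2)C against SH-SY5Y, 1 and 2 in Kelly against SH-SY5Y, and 2 and 0 in Kelly against BE(2)C. On 17q (RPL19, RPL23, RPL23A, RPL27 and RPL38) 2 were higher and 0 lower in BE(2)C against SH-SY5Y, 2 and 1 in Kelly against SH-SY5Y, and 0 and 2 in Kelly against BE(2)C. Over all genes, 28.6% were higher and 30.7% lower in BE(2)C against SH-SY5Y, 28.1% and 27.2% in Kelly against SH-SY5Y, and 27.9% and 24.6% in Kelly against BE(2)C, and arms with so few genes give no result set against these shares. Copy number was not measured, and its part in these differences was not tested.

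**Figure D5:**
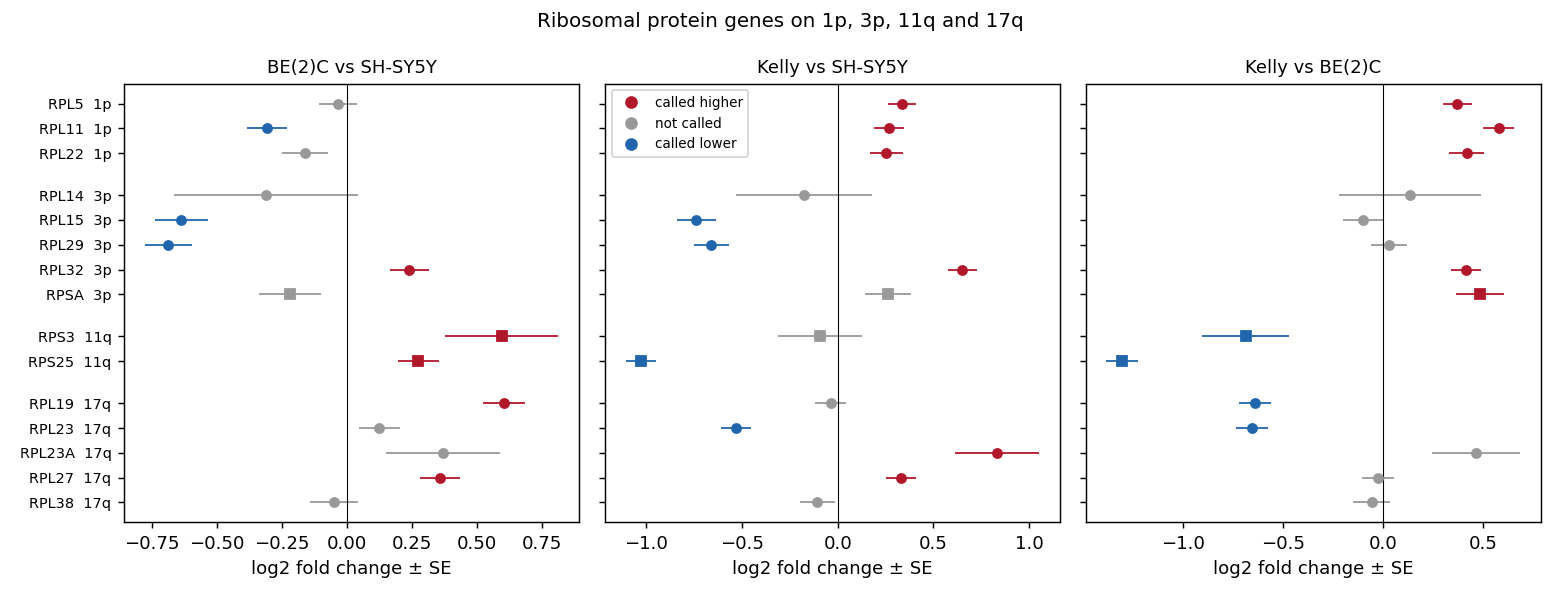
Log2 fold change with its standard error for ribosomal protein genes on chromosome arms 1p, 3p, 11q and 17q in the 3 comparisons (red called higher, blue called lower, grey not called; circles large subunit, squares small subunit). The 3 genes shown on 1p all lie above 0 in Kelly against BE(2)C and the 2 on 11q below 0.

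Of 18 genes mutated in Diamond-Blackfan anaemia, a congenital failure of red cell formation, 9 were higher and 4 lower in BE(2)C against SH-SY5Y (all genes 28.6% and 30.7%), 8 and 5 in Kelly against SH-SY5Y (28.1% and 27.2%), and 4 and 6 in Kelly against BE(2)C (27.9% and 24.6%). Their median was 0.37 in BE(2)C against SH-SY5Y (all genes -0.038), 0.15 in Kelly against SH-SY5Y (all genes -0.0043) and -0.10 in Kelly against BE(2)C (all genes 0.025). The counts of this list and of those that follow hold for the main scaling, and the other scalings were not applied to them.

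Related genes outside the naming rule were read alongside. GNB2L1 (RACK1, a signalling scaffold on the small subunit) stood at 42.6, 51.6 and 48.3 scaled TPM in Kelly libraries, 77.2, 120.2 and 154 in BE(2)C libraries and 70.2, 69.1 and 62.8 in SH-SY5Y libraries. Its difference was -1.23 ± 0.21 log2 units (SE, limma adjusted p = 0.000967) in Kelly against BE(2)C and 0.74 ± 0.21 log2 units (SE, limma adjusted p = 0.0137) in BE(2)C against SH-SY5Y. In Kelly against SH-SY5Y, the log2 fold change was 0.43 for FAU, made as a fusion with a ubiquitin-like protein. Of 6 tested paralogs, 4 were higher and 0 lower in BE(2)C against SH-SY5Y (all genes 28.6% and 30.7%), 2 and 0 in Kelly against SH-SY5Y (28.1% and 27.2%), and 0 and 4 in Kelly against BE(2)C (27.9% and 24.6%). RPL22L1, the paralog of RPL22, stood at 37.7, 29.7 and 27.1 scaled TPM in Kelly libraries, 56.3, 56.3 and 54.5 in BE(2)C libraries and 16.4, 28.2 and 17.7 in SH-SY5Y libraries. BE(2)C was above all other libraries, by 1.42 ± 0.20 log2 units (SE, limma adjusted p = 0.000208) against SH-SY5Y, where RPL22 itself differed by -0.16 with no call. RPL36AL, the paralog of RPL36A, was also higher in BE(2)C (1.01 ± 0.07 log2 units, SE, limma adjusted p = 3.53e-06).

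Other mRNAs are known to begin with a terminal oligopyrimidine tract. Of 20 such genes, for translation factors and their partners, 15 were higher and 2 lower in BE(2)C against SH-SY5Y (all genes 28.6% and 30.7%), 7 and 3 in Kelly against SH-SY5Y (28.1% and 27.2%), and 1 and 12 in Kelly against BE(2)C (27.9% and 24.6%). Their median was 0.52 in BE(2)C against SH-SY5Y (all genes -0.038), 0.25 in Kelly against SH-SY5Y (all genes -0.0043) and -0.40 in Kelly against BE(2)C (all genes 0.025). NPM1, the nucleolar histone chaperone, stood at 1657, 1924 and 1834 scaled TPM in Kelly libraries, 3676, 3251 and 3012 in BE(2)C libraries and 841, 816 and 816 in SH-SY5Y libraries, without overlap between lines, and differed by 2.001 ± 0.08 log2 units (SE, limma adjusted p = 1.2e-07) in BE(2)C and 1.13 ± 0.08 log2 units (SE, limma adjusted p = 4.63e-06) in Kelly against SH-SY5Y. EIF3F, a subunit of an initiation factor, was lower in both, with log2 fold changes of -2.34 in BE(2)C and -2.07 in Kelly. Of 14 genes that control the tract, 8 were higher and 2 lower in BE(2)C against SH-SY5Y (all genes 28.6% and 30.7%), 6 and 3 in Kelly against SH-SY5Y (28.1% and 27.2%), and 1 and 7 in Kelly against BE(2)C (27.9% and 24.6%). LARP1, the protein that binds the tract, stood at 373, 352 and 343 scaled TPM in Kelly libraries, 476, 476 and 521 in BE(2)C libraries and 213, 204 and 198 in SH-SY5Y libraries. It was higher in BE(2)C (1.26 ± 0.06 log2 units, SE, limma adjusted p = 2.4e-07) and in Kelly (0.79 ± 0.06 log2 units, SE, limma adjusted p = 4.94e-06) than in SH-SY5Y. EIF4EBP2, a translation repressor under mTOR, was lower in both, with -1.002 in BE(2)C and -0.95 in Kelly. Its paralog EIF4EBP1 went the other way, with 0.76 in BE(2)C (limma adjusted p = 8.13e-06) and 0.17 in Kelly (limma adjusted p = 0.0497). Of 8 chaperones of ribosomal proteins, 6 were higher and 0 lower in BE(2)C against SH-SY5Y (all genes 28.6% and 30.7%), 4 and 1 in Kelly against SH-SY5Y (28.1% and 27.2%), and 1 and 3 in Kelly against BE(2)C (27.9% and 24.6%). RPS19BP1, a partner of RPS19, stood at 305, 317 and 346 scaled TPM in Kelly libraries, 307, 251 and 229 in BE(2)C libraries and 79.3, 92.8 and 78.7 in SH-SY5Y libraries, with both amplified lines above SH-SY5Y.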

How the data were processed

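Polyadenylated RNA was measured in 9 libraries, 3 for each of 3 lines. The authors deposited 1 table of log10 values, which the values themselves show to be log10(TPM + 1) with spike-ins in the total. HISAT 0.1.6, Salmon 0.3.2 and GRCh38 appear in the submitters' processing notes without a stated step, and no source used here tells how gene values were built from transcripts. Of 19837 entries, 92 spike-ins, 11 reporter or selection markers and 28 entries with a date in place of a symbol stayed out of the tests, and 0 value columns were unused. TPM was back-transformed, rescaled to the gene entries and divided by a trimmed-mean factor per library (trimming 30% of log ratios and 5% of levels at either end; factors 0.758 to 1.17). limma 3.58.1 in R 4.3.3 fitted a trend on log2(scaled TPM + 1) to all libraries and the 13077 genes with at least 1 in 3 or more libraries, without a block, with two-sided Benjamini-Hochberg adjusted p-values. The added 1 makes changes of low genes look smaller. The fit was tested on simulated data. Positions and transcript numbers come from GENCODE release 29 on GRCh38, which held all 77 genes.

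The ribosomal protein genes and the other lists were chosen with earlier results of these data known. Named genes are 12 chosen for their roles, up to 8 called with the largest increase and up to 8 with the largest decrease per comparison (at least 10 scaled TPM in the higher line), those called in none, and up to 4 per other list; RPL39, RPS3, the members of arms and the genes listed for all 6 libraries were named outside this rule, after their values were seen. A few genes that the rule or the lists hold are not reported here. Alternatives covered scalings, the pseudocount, filters, the libraries in the fit, a replicate block and leaving out each library.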

Additional observations from a re-analysis of the deposited data

How the results depend on the processing

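The counts and medians of ribosomal protein genes changed with the scaling, and the cause was not tested. In BE(2)C against SH-SY5Y, gene totals only gave 9 higher, 32 lower and a median of -0.20, the values as deposited 6, 35 and -0.33, and quantile normalization 22, 29 and -0.052. Centring on the genes' own median, chosen after seeing the data, gave 21, 20 and 0.057. In Kelly against SH-SY5Y, gene totals gave 14 higher and a median of -0.14, the deposited values 5 higher, 55 lower and -0.63, and quantile normalization a median of -0.20. In Kelly against BE(2)C, gene totals gave 26 higher, 17 lower and 0.095, the deposited values 4 higher and -0.34, quantile normalization a median of -0.10, and the centring 20, 19 and -0.0061. The share of the gene total was 11.4% in Kelly, 11.4% in BE(2)C, against 11.7% in SH-SY5Y with mitochondrially encoded genes left out.

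Leaving out 1 library at a time gave 26 to 38 higher and 12 to 15 lower genes with medians of 0.22 to 0.32 in BE(2)C against SH-SY5Y. It gave 18 to 25, 18 to 24 and -0.031 to 0.053 in Kelly against SH-SY5Y, and 10 to 11, 24 to 35 and -0.30 to -0.18 in Kelly against BE(2)C. The shares ran from 9.35 to 9.41% in Kelly, 7.46 to 8.23% in BE(2)C, against 9.59 to 9.75% in SH-SY5Y.

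Single genes with a call in either of the 2 fits turned direction under other scalings. In BE(2)C against SH-SY5Y these were RPS19 (-0.33) and RPS27A (-0.41) with gene totals, RPS6 (-0.065), RPS19 (-0.45) and RPS27A (-0.52) as deposited, and RPLP1 (-0.26) and RPS27A (-0.32) with quantile normalization. In Kelly against SH-SY5Y the deposited values gave RPLP0 -0.52, RPLP1 -0.36, RPSA -0.45, RPL5 -0.38, RPL11 -0.45, RPS6 -0.23, RPS27A -0.57, RPL22 -0.45 and RPL3 -0.18, and quantile normalization RPLP1 -0.16 and RPL11 -0.19. In Kelly against BE(2)C, gene totals gave RPLP2 0.018 and RPS6 0.30. With no call in either fit, sign changes in BE(2)C against SH-SY5Y were RPLP1 with gene totals (-0.23) and as deposited (-0.34), RPS19 with quantile normalization (-0.21) and centring (-0.067), RPS27A with centring (-0.15) and RPL10 as deposited (-0.095). For Kelly against SH-SY5Y they were RPLP0 (-0.013) and RPS27A (-0.0050) with gene totals, RPS27A with quantile normalization (-0.025), RPL10 as deposited (-0.15), and RPSA with its pseudogene summed in (-0.22). In Kelly against BE(2)C they were RPLP1 (-0.014), RPS27A (-0.053) and RPL10 (-0.059) as deposited, RPL3 with gene totals (0.21), quantile normalization (0.026) and centring (0.11), and RPS6 with centring (0.20). Leaving out 1 library crossed 0 in BE(2)C against SH-SY5Y for RPL5 (-0.075 to 0.012) and RPS27A (-0.015 to 0.16), and in Kelly against BE(2)C for RPS6 (-0.095 to 0.036), RPS27A (-0.028 to 0.15) and RPL10 (-0.18 to 0.29).

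The deviations of same-numbered libraries had correlations from -0.054 to 0.026 over all genes tested, so no pairing by replicate number was seen. Such values cannot exclude that a number marks a shared day, and the labels do not say. With the replicate block 33 genes were higher and 12 lower in BE(2)C against SH-SY5Y, 21 and 22 in Kelly against SH-SY5Y, and 11 and 30 in Kelly against BE(2)C. Depth is unknown for TPM, so counting error could not be set beside any value.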
